A study of Mus musculus with 8 samples.

Results

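Mitochondrial DNA carries 37 genes in the mouse, 13 for mRNAs, 2 for ribosomal RNAs and 22 for transfer RNAs, and the transcripts of all 37 were followed in the livers of eIF2α heterozygous and wild-type mice. The members were the rows of the deposited count table whose gene symbol in the authors' deposited table begins with mt-, which gave 37 of 56077 genes and loci. eIF2α, encoded by Eif2s1, is the part of initiation factor eIF2 that stress kinases phosphorylate to reduce translation. The heterozygous group was 4 mice labelled eIF2α flox/+ (libraries H11, H12, H15 and H75), and the wild-type group was 4 control mice (libraries W32, W33, W76 and W90). All were C57BL/6 mice aged 6 months, kept lean with free access to food under a light-dark cycle and killed in the fed state in the morning. The labels name no recombinase that would act on the flox allele, and in the growth protocol the word wild-type is applied to heterozygous and control animals alike. Liver RNA was extracted with Trizol, treated with DNaseI and passed through a Ribo-Zero kit, which removes ribosomal RNA, before sequencing.

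Mitochondrial DNA is a small circle, both strands of which are transcribed as long precursors, and tRNAs are cut out of these to free the mRNAs and rRNAs that lie between them. Its mRNAs encode core subunits of respiratory complexes I, III and IV and of ATP synthase (complex V), which are built together with many subunits encoded in the nucleus. Its rRNAs and tRNAs serve the mitochondrion's own ribosomes. Liver is rich in mitochondria, and these transcripts are among the most abundant polyadenylated RNAs of a hepatocyte. In bulk liver RNA, fewer cells of a type and less RNA per cell cannot be told apart.

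Library totals were 22178028 to 28564400 counts in the heterozygous group and 25626387 to 27799116 in the wild-type group. Eif2s1 was at 20.5, 22.2, 20.8 and 25.1 CPM (the count relative to library size, scaled with TMM factors) in heterozygous livers, against 28.4, 28.8, 32.8 and 30.1 CPM in wild-type livers. Every heterozygous library lay below every wild-type library for this gene (log2 fold change, heterozygous over wild type, -0.44, SE 0.095, edgeR adjusted p = 0.315; exact two-sided permutation test p = 0.0286, the smallest that 4 against 4 libraries allow). Summed hepatocyte markers were abundant, at 98982 to 108116 CPM in heterozygous livers and 85790 to 113699 CPM in wild-type livers. Summed neutrophil markers (6 genes) were at 4.46 to 39.8 CPM against 2.003 to 4.76 CPM in wild type, and summed adipocyte markers (4 genes, Lep at 0 in every library) at 0.602 to 0.900 CPM against 2.38 to 9.82 CPM in wild type. Only 3 of the 6 neutrophil markers and 1 of the 4 adipocyte markers had enough counts for the edgeR test. The part of these markers in the results below was not tested. The labels do not say whether mice of a group shared litters, so p-values measure the spread between these samples alone.

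The members took a smaller share of the counts in every heterozygous library than in any wild-type library. Together the 37 genes held 5.98, 5.38, 6.32 and 5.26% of the counts of H11, H12, H15 and H75, and 7.34, 6.36, 7.18 and 6.44% of the counts of W32, W33, W76 and W90. The groups did not overlap, and the means were 5.74 ± 0.501% in heterozygous livers and 6.83 ± 0.500% in wild-type livers (SD, n = 4 each). No test was made of this sum, since the genes were chosen with earlier results of these data known. Counting error was small beside the spread between mice, with 95% Wilson intervals of at most 0.0101 percentage points on either side. Such intervals cover counting error only and leave out the spread between mice. Because PCR copies of a molecule are not independent reads, they can be too narrow even for counting error.

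The lower share lay in the mRNAs. The 13 mRNAs held 5.83, 5.22, 6.19 and 5.03% of the counts in heterozygous livers against 7.19, 6.23, 7.04 and 6.29% in wild-type livers, again without overlap. The 2 rRNAs held 0.106, 0.110, 0.0830 and 0.180% in heterozygous livers and 0.110, 0.0924, 0.0937 and 0.117% in wild-type livers. H75 was the highest library for the rRNAs and H15 the lowest, both of them heterozygous. The 22 tRNAs held 0.0486, 0.0470, 0.0448 and 0.0480% in heterozygous livers and 0.0422, 0.0423, 0.0456 and 0.0411% in wild-type livers, where W76 alone reached into the heterozygous range. On the scale of summed TMM-scaled CPM the members stood at 58815, 59133, 59482 and 58482 in heterozygous livers and 69448, 61385, 71792 and 62411 in wild-type livers, 0.890 times as high in the heterozygous mean. The heterozygous libraries lay within a narrow band on this scale, and most of the spread was among wild-type libraries. The difference of means, heterozygous minus wild type, was -7281 CPM for the sum. It was -3195 for mt-Nd5, -3151 for mt-Co1 and -991 for mt-Cytb, so the lower sum lay mainly in these genes. Among tested mRNAs, mt-Co3 as deposited (146) and mt-Nd6 (11.6) had the higher mean in heterozygous livers.

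**Figure D1:**
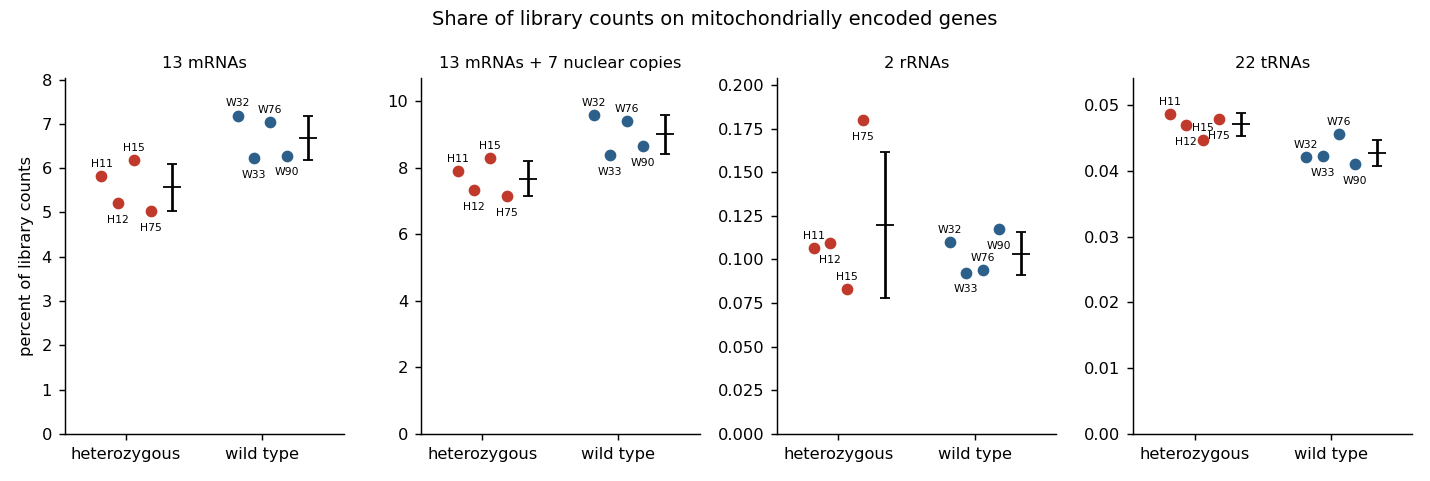
Percent of library counts on mitochondrial mRNAs, mRNAs with the nuclear copies added, rRNAs and tRNAs, one point per library, with group mean and SD beside the points (n = 4 each). In the mRNA panels the 4 heterozygous libraries, at 5.03 to 6.19% without the copies, lie below the 4 wild-type libraries, at 6.23 to 7.19%; in the rRNA and tRNA panels the groups overlap.

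Part of the sequence of these mRNAs is also present in the nuclear genome, and this bears on every level below. GENCODE release 21 annotates 7 pseudogenes that match a mitochondrial mRNA at 99% identity or more over nearly their whole length, all on the minus strand of 1 block at chr1:24611535-24616197 (GRCm38). Gm28437 is identical to mt-Co3 over 783 bases, Gm28661 to mt-Co2 over 681, Gm10925 to mt-Atp6 over 678, Gm10222 to mt-Nd4l over 294 and Gm28439 to mt-Nd4 over 876. Gm28438 differs from mt-Nd3 at 1 of 345 bases (T3C) and Gm29216 from mt-Co1 at 1 of 483 bases (A1066T), with positions counted from 1 at the first base of the mitochondrial gene. A read from an identical stretch cannot be told apart between gene and copy by its sequence. No annotated copy of mt-Atp8 itself matched at 90% identity or more. Its last 43 bases, shared with mt-Atp6, do lie in the stretch that Gm10925 repeats. Only annotated transcripts were searched. A copy in the unannotated stretch between Gm10925, which ends at 24614651, and Gm28661, which starts at 24614885, would have been missed. Adding the annotated copies therefore cannot correct mt-Atp8 for such a copy.

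The single differences are shown here because they are all that separates these copies from mt-Nd3 and mt-Co1 within the matched stretch. The sequences run 5′ to 3′ on the strand of the gene, the differing base is in capitals, and all are from GENCODE release 21 transcripts. The windows lie at chrM:9459-9501 on the plus strand for mt-Nd3, at chr1:24613077-24613119 on the minus strand for Gm28438, at chrM:6390-6433 on the plus strand for mt-Co1 and at chr1:24616145-24616188 on the minus strand for Gm29216.
mt-Nd3: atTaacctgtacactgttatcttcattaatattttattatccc
Gm28438: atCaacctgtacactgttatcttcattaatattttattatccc
mt-Co1: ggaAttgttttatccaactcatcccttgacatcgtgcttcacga
Gm29216: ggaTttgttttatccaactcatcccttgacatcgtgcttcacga
mt-Nd4l (chrM:9877-10173, plus strand) is shown whole because Gm10222 repeats all of it except the stop codon, here in capitals.
mt-Nd4l: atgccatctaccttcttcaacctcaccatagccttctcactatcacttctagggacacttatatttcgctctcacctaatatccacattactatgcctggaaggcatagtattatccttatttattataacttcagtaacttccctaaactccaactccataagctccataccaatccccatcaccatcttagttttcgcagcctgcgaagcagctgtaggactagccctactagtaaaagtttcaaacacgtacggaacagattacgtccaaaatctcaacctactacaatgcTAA

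The deposited counts were split very unevenly between these genes and their copies. mt-Nd4l had 0 counts in every library, and Gm10222 held 10689, 6422, 9127 and 6380 counts in heterozygous livers and 14940, 12406, 12551 and 10882 counts in wild-type livers. mt-Atp6 never exceeded 1.41 counts, and Gm10925 held 98599 to 117126 counts in heterozygous livers and 136015 to 153473 in wild-type livers. Both genes were therefore listed at or near 0 although a sequence identical to nearly all of each was abundantly counted. Of the summed counts of gene and copy, mt-Co3 received 2.54 to 3.78% in heterozygous livers and 0.212 to 2.90% in wild-type livers, and mt-Co2 received 1.27 to 2.75% in heterozygous livers and 0.780 to 3.99% in wild-type livers. mt-Nd3 received 14.998 to 22.9% in heterozygous livers and 16.5 to 28.3% in wild-type livers. mt-Co1, whose copy covers only its 3′ end (bases 1063 to 1545), received 91.1 to 96.1% in heterozygous livers and 94.2 to 96.3% in wild-type livers. For mt-Nd4 the split ran the other way, with at most 4.32 counts in any library on Gm28439.

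**Figure D2:**
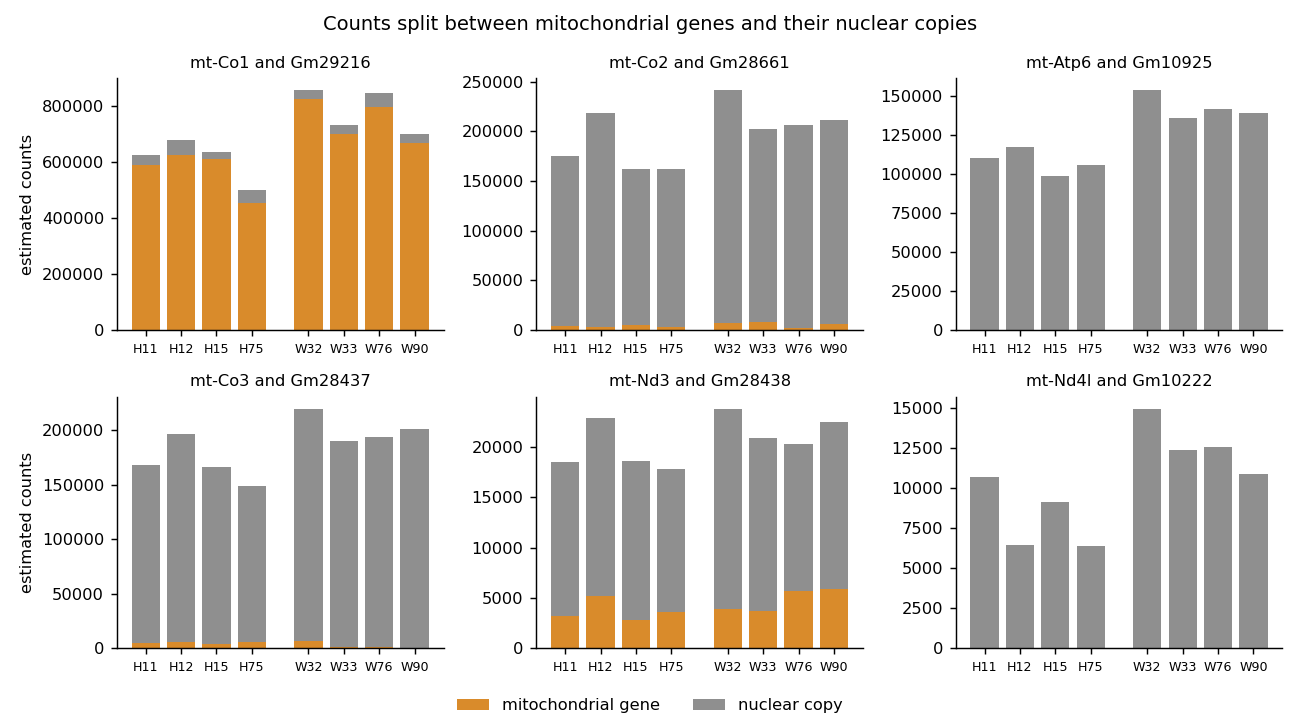
Estimated counts on 6 mitochondrial genes and on their near-identical nuclear copies, stacked, one bar per library, heterozygous libraries left and wild-type libraries right. Nearly all counts of the mt-Atp6, mt-Nd4l, mt-Co2 and mt-Co3 sequences stand on the copy, and mt-Co1 keeps 91.1 to 96.3% on the mitochondrial gene.

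The copies held 2.06, 2.11, 2.11 and 2.12% of the counts in heterozygous livers and 2.40, 2.15, 2.37 and 2.36% in wild-type livers, so this share too was lower in every heterozygous library. On summed TMM-scaled CPM the copies overlapped, at 20284, 23154, 19859.8 and 23593 in heterozygous livers and 22699, 20790.0, 23699 and 22843 in wild-type livers. With the copies added, the share was 8.05, 7.48, 8.43 and 7.39% in heterozygous livers against 9.74, 8.51, 9.55 and 8.80% in wild-type livers, still without overlap. On the TMM-scaled sum the groups then met, at 79098 to 82287 CPM in heterozygous livers and 82175 to 95491 CPM in wild-type livers, since H12 lay above W33. Levels are given below both as deposited and with the copy's counts added to its gene, a choice made after the split was seen.

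Of the 37 members, 17 had enough counts to be tested among 14261 genes: 11 mRNAs, both rRNAs and 4 tRNAs. None passed an adjusted p of 0.05 with edgeR's quasi-likelihood test, as was true of all genes (0%). Unadjusted p was under 0.05 for 5 of the 17, beside 9.34% of all tested genes. Heterozygous values were higher for 2 of these (mt-Co3 and mt-Tp), beside 4.9% of all genes, and lower for 3 (mt-Tq, mt-Atp8 and mt-Nd5), beside 4.44%. DESeq2 also called 0 members, beside 1.07% of all genes, and had 5 of 17 under an unadjusted p of 0.05, beside 9.75%. It gave mt-Co3 as deposited no adjusted p, so that gene could not be called there. limma-voom called 0 members, beside 0% of all genes, and had 5 of 17 under an unadjusted p of 0.05, beside 9.4%. The log2 fold change was below 0 for 12 of 17 members, beside 48.9% of all genes, and its median was -0.17 over the members and 0.0051 over all genes. With the copies added, 19 members were tested, mt-Atp6 and mt-Nd4l now among them. None was called (0% of all genes), 14 of 19 were below 0, and the median was -0.054. Unadjusted p was then under 0.05 for 1 member with higher heterozygous values, mt-Tp (4.9% of all genes), and for 4 with lower values (4.44%), mt-Nd4l now being among them. For mt-Atp8 and mt-Cytb (2 of 17) every heterozygous library lay below every wild-type library, beside 2.33% of all genes, and no member had the opposite separation, beside 2.05%. In the comparison table that the authors deposited, 19 members are marked as having no test and 18 are not, none is marked significant, and the lowest adjusted p is 0.245, for mt-Tp.

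**Figure D3:**
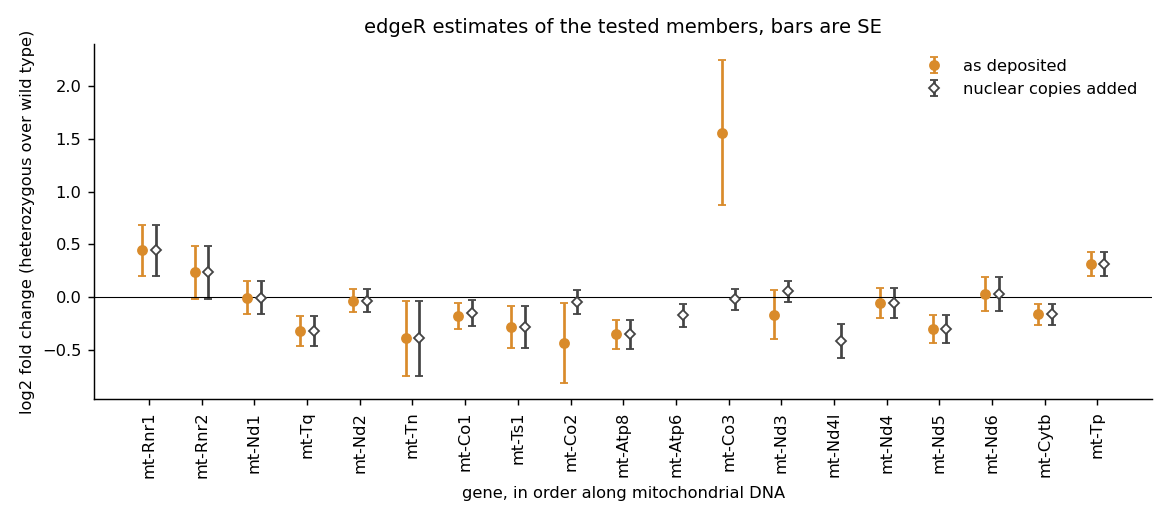
edgeR log2 fold change (heterozygous over wild type) of each tested member in order along mitochondrial DNA, as deposited (filled circles) and with nuclear copies added (open diamonds); bars are SE. mt-Co3 stands at 1.56 as deposited and at -0.024 with its copy added; mt-Atp6 and mt-Nd4l have a value only with their copies.

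Complex IV, cytochrome c oxidase, passes electrons to oxygen, and its catalytic core is made of the 3 mitochondrially encoded subunits. mt-Co1 (chrM:5328-6872), the subunit that holds the site of oxygen reduction, was the most abundant member, at 23664, 24058, 25843 and 22675 CPM in heterozygous livers and 28016, 24925, 30631 and 25271 CPM in wild-type livers. H15 alone among heterozygous libraries lay above the lowest wild-type libraries (log2 fold change -0.18, SE 0.12, edgeR adjusted p = 0.683; -0.15 with the copy). mt-Co2 (chrM:7013-7696), which takes electrons from cytochrome c, had 157, 106, 189 and 150.2 CPM as deposited in heterozygous livers and 245, 288, 62.0 and 219 CPM in wild-type livers. W76 was the lowest library of all although it belongs to the group with the higher mean. With Gm28661 added, mt-Co2 stood at 7005, 8386, 6861 and 8092 CPM in heterozygous livers and 8204, 7212, 7949 and 8000.0 CPM in wild-type livers, and the log2 fold change of -0.43 (SE 0.38, edgeR adjusted p = 0.749) became -0.048 (SE 0.11, adjusted p = 0.924). With the copy, the groups overlapped and W76 was no longer apart from the other libraries.

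mt-Co3 (chrM:8607-9390), the remaining core subunit of complex IV, had the widest difference of any tested member as deposited. Its values were 211, 210.0, 179.6 and 281 CPM in heterozygous livers and 216, 32.7, 33.6 and 16.1 CPM in wild-type livers. W32 lay within the heterozygous range, and the other wild-type libraries were far below it (log2 fold change 1.56, SE 0.69, edgeR adjusted p = 0.527). Without W32 the log2 fold change was 3.001 with an adjusted p of 0.0326, the only alternative run in which a member passed, and over all alternatives the adjusted p ran from 0.0326 to 0.962. With Gm28437 added, mt-Co3 stood at 6749, 7564, 7065 and 7422 CPM in heterozygous livers and 7465, 6773, 7466 and 7577 CPM in wild-type livers. The groups then overlapped throughout, and the log2 fold change was -0.024 (SE 0.10, edgeR adjusted p = 0.962). The deposited counts of mt-Co3 itself were 4232 to 5618 in heterozygous livers and 426 to 6360 in wild-type livers, beside 142845 to 191053 on the copy in heterozygous livers and 188803 to 212999 in wild-type livers.

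Complex III carries electrons from ubiquinol to cytochrome c, and mt-Cytb (chrM:14145-15288), cytochrome b, is its single mitochondrially encoded subunit. mt-Cytb had 8032, 8223, 8018 and 8208 CPM in heterozygous livers and 9400.2, 8531, 9647 and 8867 CPM in wild-type livers. All heterozygous libraries lay below all wild-type libraries and close to each other, with an SD of 111 CPM against 506 CPM in wild type. The log2 fold change was -0.17 (SE 0.10, edgeR adjusted p = 0.645), so the separation of the groups did not pass the test. mt-Cytb has no near-identical annotated copy, and as a share of all mitochondrial mRNA counts with copies it was 10.2 to 10.4% in heterozygous livers and 10.3 to 10.6% in wild-type livers.

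Complex V, ATP synthase, makes ATP from the proton gradient, and its membrane part includes the products of mt-Atp6 and mt-Atp8. The reading frames of these genes overlap by 43 bases. mt-Atp8 (chrM:7766-7969) had 502, 329.5, 471 and 500.3 CPM in heterozygous livers and 582, 577, 629 and 518 CPM in wild-type livers. The groups did not overlap, with H12 far below the other heterozygous libraries (log2 fold change -0.36, SE 0.14, edgeR adjusted p = 0.486). mt-Atp6 (chrM:7927-8607) could be followed only through Gm10925, which gave 4432, 4509, 4185 and 5276 CPM in heterozygous livers and 5223, 4856, 5454 and 5256 CPM in wild-type livers. Only H75 reached the wild-type range (log2 fold change -0.18, SE 0.11, edgeR adjusted p = 0.657).

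Complex I, the entry point of electrons from NADH, has 7 mitochondrially encoded subunits, all in its membrane arm. mt-Nd5 (chrM:11742-13565), the most abundant of them, had 15199, 11837, 14110 and 12573 CPM in heterozygous livers and 18452, 15826, 17612 and 14611 CPM in wild-type livers. H11 alone exceeded the lowest wild-type library (log2 fold change -0.31, SE 0.13, edgeR adjusted p = 0.516). mt-Nd4l, read through Gm10222, had 429, 247, 387 and 319 CPM in heterozygous livers and 508, 443, 483 and 411 CPM in wild-type livers. H11 again reached above the lowest wild-type library (log2 fold change -0.42, SE 0.16, edgeR adjusted p = 0.482). The other subunits sat close to 0 difference. mt-Nd1 had a log2 fold change of -0.0074 (SE 0.15), mt-Nd2 of -0.034 (SE 0.11), mt-Nd4 of -0.054 (SE 0.14) and mt-Nd6 of 0.027 (SE 0.16; -0.071 when scaled by library totals alone), with edgeR adjusted p from 0.932 to 0.993. mt-Nd3 was at -0.17 (SE 0.23, edgeR adjusted p = 0.849) as deposited and at 0.052 (SE 0.098, adjusted p = 0.895) with Gm28438. H12 had the highest mt-Nd1, mt-Nd2 and mt-Nd6 of all 8 libraries, at 3345, 5184 and 796 CPM, and the lowest mt-Nd5, mt-Atp8 and mt-Nd4l.

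mt-Nd6 lies on the minus strand and overlaps its plus-strand neighbour mt-Nd5 by 14 bases, and the ratio of the pair within a library is free of library scaling. It was 0.0367, 0.0673, 0.0367 and 0.0506 in heterozygous livers and 0.0353, 0.0336, 0.0418 and 0.0372 in wild-type livers. H12 and H75 were the high libraries, and the groups overlapped (difference of mean log2 ratio 0.33, exact two-sided permutation p = 0.229, adjusted over 3 ratios 0.343). The ratio of mt-Nd1 to mt-Cytb, the first and last mRNAs along the plus strand, was 0.265, 0.407, 0.277 and 0.301 in heterozygous livers and 0.268, 0.263, 0.274 and 0.318 in wild-type livers. H12 was again apart, and the log2 difference of 0.14 did not exceed the spread (exact permutation p = 0.514, adjusted 0.514).

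The rRNAs form the core of the small and large subunits of the mitochondrial ribosome. mt-Rnr1 (12S, chrM:70-1024) had 522, 568, 365 and 931 CPM in heterozygous livers and 458, 390.5, 411 and 496 CPM in wild-type livers. mt-Rnr2 (16S, chrM:1094-2675) had 524, 636, 416 and 1070.2 CPM in heterozygous livers and 583, 502, 526 and 639.7 CPM in wild-type livers. H75 was the highest and H15 the lowest for both genes, so the wild-type libraries lay inside the heterozygous range. The log2 fold changes were 0.44 for mt-Rnr1 (SE 0.24, edgeR adjusted p = 0.607) and 0.23 for mt-Rnr2 (SE 0.25, edgeR adjusted p = 0.802). Without H75 they were 0.14 and -0.0996. Ribosomal RNA was removed before sequencing, so these values are what the depletion left.

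The ratio between the rRNAs separated the groups. mt-Rnr2 to mt-Rnr1 was 1.003, 1.12, 1.14 and 1.15 in heterozygous livers and 1.27, 1.28, 1.28 and 1.29 in wild-type livers, in counts per gene. Every heterozygous library lay below every wild-type library, and the wild-type libraries differed from each other by very little. The difference of mean log2 ratio was -0.22 (exact two-sided permutation p = 0.0286, the smallest that 70 assignments allow; adjusted over the 3 ratios 0.0857). Leaving out any 1 library gave -0.24 to -0.17. The adjusted p did not pass 0.05. Both counts are what the removal of ribosomal RNA left, and whether that removal changed the ratio was not tested. All 16 rRNA counts were whole numbers, unlike most values above 0 of the other members, and neither rRNA had a near-identical annotated copy. H11, the lowest library in this ratio, was not extreme in the level of either rRNA.

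**Figure D4:**
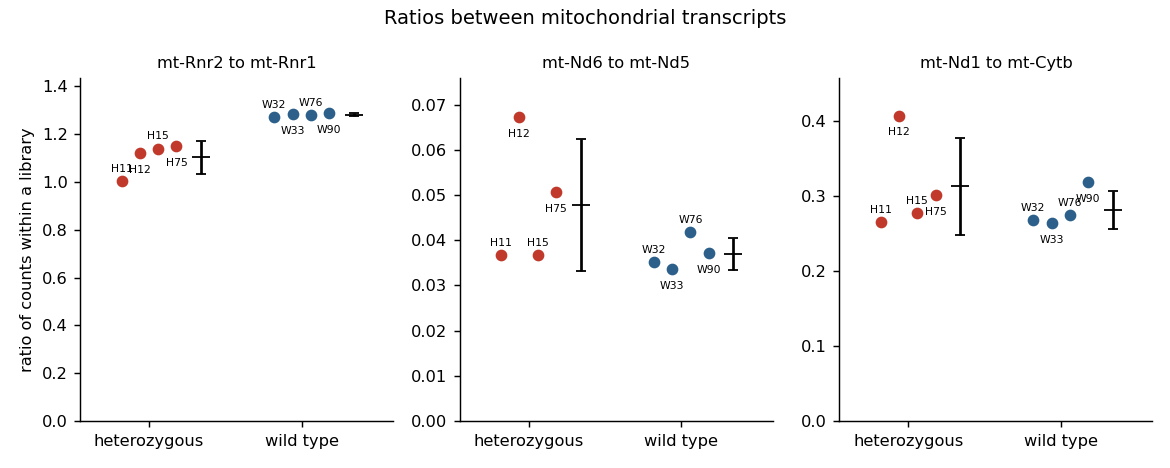
Ratio of counts within a library for 3 pairs of mitochondrial transcripts, one point per library, with group mean and SD beside the points (n = 4 each), axes from 0. For mt-Rnr2 to mt-Rnr1 the heterozygous libraries lie at 1.003 to 1.15, all below the wild-type libraries at 1.27 to 1.29; for the other 2 pairs the groups overlap, with H12 high in both.

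The 22 tRNAs were counted almost only on the minus strand. Of 8 minus-strand tRNA genes, 4 reached 10 counts in a library and the other 4 (mt-Ta, mt-Tc, mt-Ty and mt-Te) never exceeded 6.59. Of 14 plus-strand tRNA genes, 10 had 0 counts everywhere and none exceeded 1 count. A count of 0 allows up to 3 counts, or 0.102 to 0.150 CPM depending on the library. Summed over libraries, the minus-strand genes held 91475 counts and the plus-strand genes 3.79. Standard Illumina RNA libraries hold few mature tRNAs, which are short, and the sources used here do not say whether counting took account of strand. The 4 counted tRNAs are printed as genes on the minus strand with the anticodon in capitals, from GENCODE release 21. They are mt-Tp for proline (chrM:15356-15422), mt-Tq for glutamine (chrM:3772-3842), mt-Tn for asparagine (chrM:5089-5159) and mt-Ts1 for serine (chrM:6870-6938).
mt-Tp: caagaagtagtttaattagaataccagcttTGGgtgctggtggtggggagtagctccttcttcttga
mt-Tq: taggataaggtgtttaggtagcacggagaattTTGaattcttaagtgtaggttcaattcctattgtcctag
mt-Tn: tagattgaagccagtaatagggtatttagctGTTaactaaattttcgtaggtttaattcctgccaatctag
mt-Ts1: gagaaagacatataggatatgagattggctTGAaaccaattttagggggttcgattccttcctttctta

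mt-Tp, which lies next to the control region of mitochondrial DNA, held most tRNA counts, with 426, 467, 357 and 488 CPM in heterozygous livers and 336, 339.6, 383 and 338 CPM in wild-type livers. H15 was low and W76 high within their groups, and they were the libraries that made the groups overlap. Its log2 fold change was 0.32 (SE 0.11, edgeR adjusted p = 0.458). mt-Tq, which overlaps the plus-strand mt-Ti by 3 bases, had 42.8, 39.3, 55.6 and 33.6 CPM in heterozygous livers and 53.3, 57.8, 53.2 and 49.9 CPM in wild-type livers. H15 was the single heterozygous library within the wild-type range (log2 fold change -0.32, SE 0.14, edgeR adjusted p = 0.523). H15 thus stood against its group in both tRNAs, which differed in opposite directions. mt-Tn (3.31 to 6.29 CPM in heterozygous livers, 3.802 to 11.3 CPM in wild-type livers) and mt-Ts1 (4.41 to 5.58 CPM in heterozygous livers, 4.48 to 8.28 CPM in wild-type livers) were near the low end of what was tested. mt-Tn had a log2 fold change of -0.39 (SE 0.36, edgeR adjusted p = 0.758) and mt-Ts1 of -0.29 (SE 0.20, edgeR adjusted p = 0.685).

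Levels per length set the members in order. In CPM per kb with the copies added, mt-Co1 came first at 16670 ± 610.3 in heterozygous livers and 18482 ± 1911 in wild-type livers (SD, n = 4 each). mt-Co2 followed at 11090.4 ± 1119 in heterozygous livers and 11464 ± 634 in wild-type livers, and mt-Co3 at 9184 ± 468 in heterozygous livers and 9337 ± 470.1 in wild-type livers. On group means the 3 complex IV mRNAs thus led in both groups. Their ranges in heterozygous livers did not overlap each other. In wild-type livers, however, the range of mt-Nd5 (8010 to 10117) overlapped that of mt-Co3 (8639 to 9665). mt-Nd5, mt-Cytb and mt-Atp6 came next at 6755 to 7363 on the mean in heterozygous livers, and neighbours in this stretch of the order overlapped. The lowest gene for an mRNA was mt-Nd4l in heterozygous livers and mt-Nd6 in wild-type livers. These levels are per annotated gene and not per RNA molecule. mt-Nd4l overlaps mt-Nd4 by 7 bases and mt-Atp8 overlaps mt-Atp6 by 43. Whether reads of such neighbours came from a shared RNA was not tested. mt-Nd4l was at 1164 ± 268 in heterozygous livers and 1554 ± 145 in wild-type livers, and mt-Nd6 at 1209 ± 237 in heterozygous livers and 1186 ± 186 in wild-type livers. mt-Tp, per length, was at 6488 ± 859.7 in heterozygous livers and 5213 ± 341 in wild-type livers, above every complex I mRNA but mt-Nd5. The mt-Tp gene is only 67 bases long, and such libraries hold few mature tRNAs. Its value per length is therefore no measure of tRNA abundance beside the mRNAs. The rRNAs stood at 625 for mt-Rnr1 and 418 for mt-Rnr2 in heterozygous livers, and at 459.7 for mt-Rnr1 and 356 for mt-Rnr2 in wild-type livers, after depletion.

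**Figure D5:**
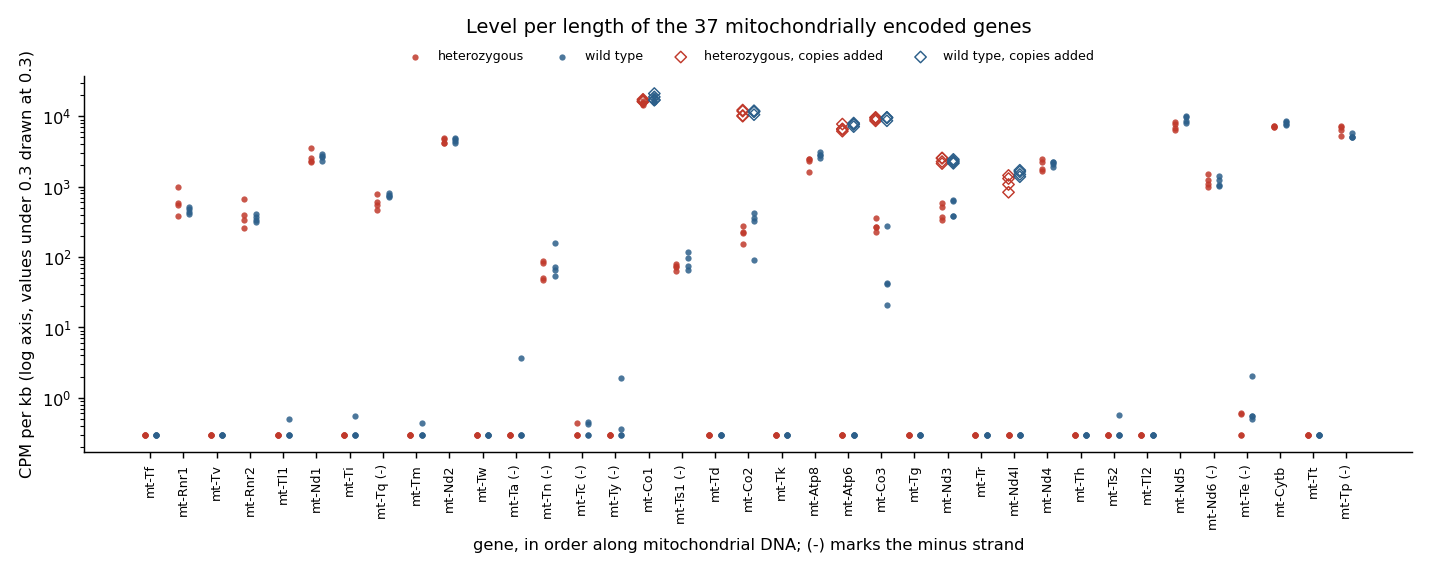
CPM per kb (log axis) of all 37 members in order along mitochondrial DNA, one point per library, heterozygous left and wild type right of each tick; open diamonds add the nuclear copies, values under 0.3 are drawn at 0.3, and (-) marks the minus strand. The plus-strand tRNAs lie at or near the bottom, and mt-Co2, mt-Co3, mt-Atp6 and mt-Nd4l reach the level of the other mRNAs only with their copies.

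The make-up of the mitochondrial mRNA pool overlapped between the groups for every complex. With the copies added, complex IV mRNAs were 51.3 ± 1.09% of the pool in heterozygous livers and 50.03 ± 0.705% in wild-type livers. Complex I mRNAs were 31.98 ± 0.825% in heterozygous livers and 32.9 ± 0.754% in wild-type livers, and complex V mRNAs 6.40 ± 0.604% in heterozygous livers and 6.62 ± 0.230% in wild-type livers (SD, n = 4 each). All of these ranges overlapped. As deposited, mt-Co3 had been 0.386 ± 0.0821% of the pool in heterozygous livers and 0.112 ± 0.138% in wild-type livers.

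Nuclear genes that act on these transcripts, or whose products join theirs, had 0 calls at an adjusted p of 0.05 in every list (edgeR), and counts under an unadjusted p of 0.05 stand beside 9.34% of all tested genes. Of 20 tested genes for mitochondrial transcription and DNA maintenance, 1 had an unadjusted p under 0.05: Mterf2, a factor of the family that binds mitochondrial DNA, with a log2 fold change of -0.55 (SE 0.24, edgeR adjusted p = 0.525), and the list median was -0.049. None of 31 genes for mitochondrial RNA processing and decay (median 0.034) nor of 15 for mitochondrial translation (median -0.027) nor of 13 for the mitochondrial unfolded protein response (median 0.030) reached an unadjusted p under 0.05. Of 10 regulators of mitochondrial biogenesis (median -0.059), Pprc1, a PGC-1 related coactivator, was higher in every heterozygous library (log2 fold change 0.57, SE 0.19, edgeR adjusted p = 0.436). The same separation held for 2.05% of all tested genes. Ppargc1a, PGC-1α itself, was at -0.63 (SE 0.26, edgeR adjusted p = 0.495). Among nuclear-encoded subunits, with TMM scaling, the log2 fold change was below 0 for 3 of 39 in complex I (median 0.13), 2 of 8 in complex III (median 0.091), 0 of 11 in complex IV (median 0.13) and 3 of 17 in complex V (median 0.13), beside 48.9% of all tested genes (median 0.0051). Complex II, which has no mitochondrially encoded subunit, had 2 of 4 below 0 (median -0.028). No test was made of these counts. For each complex the summed CPM overlapped between the groups. Complex I was at 2444.5 to 3214 CPM in heterozygous livers and 2444.4 to 2695 CPM in wild-type livers. Complex IV was at 1367 to 1819 CPM in heterozygous livers and 1327 to 1509 CPM in wild-type livers. No gene of these complexes was higher in every heterozygous library, beside 2.05% of all tested genes. Unadjusted p was under 0.05 for 2 of the complex I genes, Ndufb7 at 0.29 and Ndufs6b at -1.03, for 1 of the complex V genes, Atp5g2 at -0.40, and for none of the rest. In complex V, 1 gene was lower in every heterozygous library, beside 2.33% of all tested genes. The nuclear copies' list of 10 had 7 tested members and a median of -0.039, and the list of abundant nuclear non-coding RNA and residual nuclear rRNA had 9 tested members and a median of -0.80. In the second of these, 2 genes had an unadjusted p under 0.05, Rn7sk at -2.06 and Lars2 at -0.81, which encodes the mitochondrial leucyl-tRNA synthetase and is no non-coding RNA.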

How the data were processed

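The table deposited by the authors holds unnormalized estimated counts in 8 columns and 56077 rows, of which 541 are unannotated loci with 0.431 to 0.977% of a library's counts. Of all values, zeros included, 90.0% are whole. Of the members' values above 0, a different base, only 16.6% are whole, so reads were split between features. The build mm10 and the tools fastp 0.19.5, Bowtie2 2.2.9, GATK 3.8 and SAMtools 1.9 are listed, with no roles, in the submitters' processing notes. The program that counted reads, its annotation and its strand setting were not given in the sources used here. In the authors' deposited table, the columns list per gene a linear fold (ratio), its log2, a p-value and an adjusted p, per the file headers; 99.5% of its signs over 13971 shared genes match heterozygous over wild type.

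Column names give the group by first letter and carry no replicate number. Counts were rounded, filtered with filterByExpr (14261 genes), scaled by TMM (factors 0.900 to 1.06) and tested by edgeR 4.0.16 (quasi-likelihood, group as the only term) in R 4.3.3, with Benjamini-Hochberg adjustment over all tested genes. Shares use all rows of a column. Ratios were tested by exact permutation over 70 assignments. Copies were found with BLAST 2.17.0 among all GENCODE release 21 transcripts other than those of the members. Alternatives were other scalings and filters, DESeq2 1.42.0, limma-voom (limma 3.58.1), the other edgeR quasi-likelihood method and leaving out each library; adding the copies was chosen after seeing the data. All 37 members may be named, and of each other list at most 4 tested genes of lowest p. Members and lists were chosen with earlier results of these data known. All 8 libraries were kept, since no pair within a group agreed within sampling noise (22.1 to 180 chi-square per gene). The fits were tested on simulated data. There edgeR recovered 22% of genes changed 1.5-fold, 64% of those changed 2-fold and 90% of those changed 4-fold. Most 1.5-fold changes were thus missed in the simulation, and a lack of calls does not show a lack of change.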

Additional observations from a re-analysis of the deposited data

Results flagged for a closer look

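Of 60 groups of 4 values checked, 3 had 1 library far from the other libraries of its group, and chance gives about 1 such flag in 20 groups. mt-Co3 as deposited was at 216 CPM in wild-type library W32 and at 16.1 to 33.6 CPM in the other wild-type libraries. With Gm28437 added, mt-Co3 in W33 was low at 6773 CPM, against 7465 to 7577 CPM in the other wild-type libraries. mt-Tp was at 383 CPM in W76, against 336 to 339.6 CPM in the other wild-type libraries.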

How the results depend on the processing

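No paired analysis was possible because the columns of the count table carry no replicate number. The count of members called stayed at 0 under every other scaling, filter and tool and with the copies added, and leaving out 1 library gave 0 to 1; the 1 was mt-Co3 without W32. DESeq2 gave mt-Co3 as deposited no adjusted p. The count over all genes was 0 with edgeR, 152 with DESeq2 (152 with the copies added), 1 with the other quasi-likelihood method and 18 without a filter on low counts, and 0 to 254 leaving out 1 library (252 without H15 and 2 without W32 as deposited). The members' median log2 fold change was -0.30 over 26 members without a filter and -0.19 to -0.024 leaving out 1 library as deposited. With the copies added it was -0.011 without H11, -0.015 without H15 and -0.025 without W76. Library totals alone, with no TMM factors, moved the median of all genes to -0.079 and that of the members to -0.25, and turned mt-Nd6 to -0.071.

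Adding the copies turned mt-Co3 to -0.024 and mt-Nd3 to 0.052. Leaving out 1 library turned the sign of some small log2 fold changes: mt-Nd1 ran from -0.17 to 0.069, mt-Nd2 from -0.089 to 0.0049, mt-Nd4 from -0.16 to 0.027 (-0.16 to 0.026 with its copy), mt-Nd6 from -0.11 to 0.13, mt-Rnr2 from -0.0996 to 0.40, mt-Tn from -0.57 to 0.067, and mt-Co3 with its copy from -0.057 to 0.0064. mt-Co3 as deposited stayed above 0, from 1.22 to 3.001. The cause was not tested in any of these. The share differences kept their sign except that of the rRNAs, which ran from -0.0037 to 0.029 percentage points. With 4 against 3 libraries no permutation p can be below 0.0571, so leaving out a library cannot test the ratios. Depth limits mt-Tn and mt-Ts1, at 77.9 to 293 counts, and the 20 members under 10 counts.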

Other observations

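Beyond the 7 near-identical copies, 9 annotated nuclear pseudogenes matched a mitochondrial gene at 90 to 99% identity, and the highest count on any of them in a library was 18.99, on Gm13340, which matches the whole of mt-Co1 at 97.6%. Of the summed counts of members and near-identical copies, the copies held 25.0 to 28.7% in heterozygous livers and 24.6 to 26.8% in wild-type livers.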
